A study of Mus musculus with 23 samples.

Results

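The regions described here were 3307 NANOG peaks that were listed only in the 2nd of a pair of wild-type (WT) NANOG experiments in mouse embryonic stem cells and that lay at a trimethylated histone. Members were chosen by measured peak positions in 3 lists: a peak was a member when it belonged to the WT replicate 2 list, overlapped no peak of WT replicate 1, and overlapped a WT H3K4me3 peak by at least 1 bp. These 3307 regions were 33.0% of the 10031 WT replicate 2 peaks, and the 12 peak lists of the series held 243327 peaks in all. They are called promoter-like sites below because H3K4me3 is the mark of promoters, and that mark is the only ground for the name. The peak lists use the mouse build mm9, and the peaks were not joined to genes here.

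The study compared Bach1-knockout cells (genotype Bach1 -/-, made by CRISPR/Cas9) with WT cells, both of the E14Tg2A embryonic stem cell line grown on gelatin in serum with leukemia inhibitory factor. NANOG was immunoprecipitated in 2 replicates per genotype, and replicate 1 of each genotype pools a pair of sequencing runs per the labels. H3K4me3, H3K27ac and H3K4me1 had 1 sample per genotype. BACH1 was mapped with an anti-FLAG gel in a DoxBach1 line, in which a piggyBac transposon carries a doxycycline-inducible Bach1 with a C-terminal FLAG tag, after 6 hours of doxycycline. It therefore reports induced, tagged BACH1 and not the endogenous protein. RNA was sequenced in 3 libraries per genotype, and the labels do not say how many clones the knockout cells came from.

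NANOG is a homeodomain transcription factor of the pluripotency network that binds mostly at enhancers together with OCT4 and SOX2 and, at fewer places, close to gene starts. H3K4me3 is laid down around active and poised promoters by MLL and SET1 complexes, H3K27ac marks active promoters and enhancers, and H3K4me1 is the typical mark of enhancers and of promoter flanks. BACH1 is a heme-responsive leucine zipper factor of the CNC family that represses antioxidant genes, and the study asks whether it brings NANOG and H3K4 methyltransferases to DNA.

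RNA of the targeted gene served as a check of the labels. Bach1 had 1.69, 1.76 and 2.05 TPM (transcript level scaled to length and library) in the knockout libraries, against 2.35, 2.50 and 2.70 TPM in the WT libraries, so the groups did not overlap and the transcript was still detected in the knockout. The labels do not say which part of the gene was cut. Its log2 fold change was −0.31 (SE 0.072, limma adjusted p = 0.00282) on the log2(TPM + 1) scale, and under median-of-ratios scaling it was −0.16 with an adjusted p of 0.0730. Nanog had 115, 122 and 113 TPM in the knockout libraries, against 305, 309 and 305 TPM in the WT libraries, a log2 fold change of −1.39 (SE 0.030, limma adjusted p = 7.18e-10). The test called 83.0% of 12196 genes. All 8 stem cell markers reached 1 TPM in every library, with summed levels of 6525 to 6676 TPM in knockout and 5158 to 5325 TPM in WT. The sum is mostly Dppa5a and Pou5f1, and single markers lay on both sides: Utf1 averaged 491 TPM in knockout and 38.6 TPM in WT, and Esrrb 68.8 TPM in knockout and 124 TPM in WT. Of 6 fibroblast markers only Thy1 reached 1 TPM in every library, the 6 summing to 12.1 to 13.1 TPM in knockout and 4.04 to 4.35 TPM in WT, and none of the 4 endoderm or 2 neuroectoderm markers and 1 of the 3 trophectoderm markers did.

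The promoter-like sites were about as enriched as the WT replicate 2 list as a whole and slightly wider. Their width ran from 212 to 1193 bp with a median of 278 bp, against 263 bp over all 10031 peaks, and the middle 50% of them lay between 217 and 371.5 bp. Fold enrichment over the local background at the summit ran from 2.69 to 48.6 with a median of 5.44, against 5.52 over all peaks, and quartiles of 4.67 and 6.30. The −log10 q, the caller's confidence in a peak, had a median of 4.14. These values come from the list that chose the members, are the authors' own, and are given as a description.

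At H3K4me3, the peaks that both WT replicates listed had the larger widths and enrichments. The 451 replicate 2 peaks at H3K4me3 that replicate 1 listed too had a median width of 342 bp, a median fold enrichment of 7.09 and a median −log10 q of 7.02. A fold enrichment of 10 or more was reached by 38 promoter-like sites (1.15%), against 97 of the 451 shared peaks (21.5%) and 428 of all 10031 peaks (4.27%). In the top 10% of the whole list by enrichment lay 158 promoter-like sites (4.78%) and 172 shared peaks (38.1%). The smallest width in the list, 212 bp, was that of 753 promoter-like sites (22.8%) and 42 shared peaks (9.31%), against 2764 of all 10031 peaks (27.6%).

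In enrichment the promoter-like sites resembled the other peaks that only replicate 2 listed, and they were somewhat wider. The 5237 replicate 2 peaks found neither in replicate 1 nor at H3K4me3 had a median fold enrichment of 5.45 and a median −log10 q of 4.16, close to the 5.44 and 4.14 above. Their median width was 245 bp, and 1822 of them (34.8%) stood at the 212 bp minimum. The narrowest peak of WT replicate 1 was 313 bp, against 212 bp in replicate 2, and the part of this difference between the lists in what they share was not tested.

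**Figure D1:**
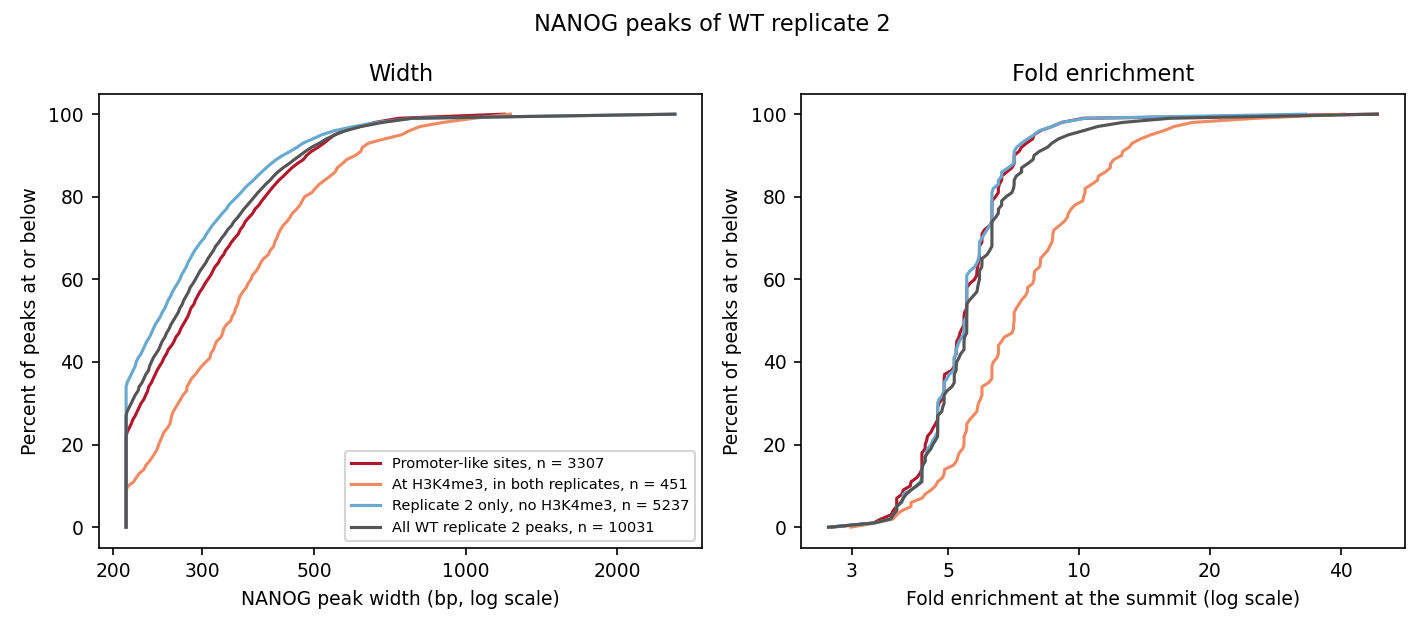
Cumulative share of WT replicate 2 NANOG peaks (vertical axis, percent) by peak width in bp (left, log axis) and by fold enrichment at the summit (right, log axis), for the promoter-like sites, the peaks at H3K4me3 that both replicates listed, the replicate-2-only peaks outside H3K4me3 and all peaks. The curves of both classes listed by replicate 2 alone nearly coincide for enrichment (medians of 5.44 and 5.45), while the peaks of both replicates lie to the right (median 7.09).

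The rule was seldom met by a few bases. Only 9 promoter-like sites overlapped H3K4me3 by under 50 bp, and the smallest overlap was 4 bp, at chr6:52139958-52140192 with a fold enrichment of 5.90. On the other side, the nearest peak left out for want of H3K4me3 lay 8 bp away, at chr10:80400321-80400689 with a fold enrichment of 5.75, and 87 such peaks lay within 500 bp. For the replicate rule, the promoter-like site closest to a replicate 1 peak was 5 bp from it, at chr12:81216735-81217070 with a fold enrichment of 4.48, and the smallest overlap that left a peak out was 4 bp, at chr5:92512564-92512875 with a fold enrichment of 2.98. A replicate 1 peak lay within 500 bp of 86 promoter-like sites (2.60%) and within 5000 bp of 427 (12.9%), and the median gap to one was 57398 bp.

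The 5 most enriched promoter-like sites had fold enrichments of 20.9 to 48.6, against a median of 5.44 over all sites, and each of them overlapped a NANOG peak of knockout replicate 2. The first, chr1:46910090-46910806, was 717 bp wide with a fold enrichment of 48.6 in WT, the highest of the whole WT replicate 2 list. The knockout replicate 2 peak there had 85.7. The second, chr9:44689355-44689777, had 29.9 in WT and a knockout peak of 38.7, and it lay in an H3K4me3 peak with a −log10 p of 106. The next, chr19:40662467-40663178, had 27.3 in WT and a knockout peak of 78.6.

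The remaining 2 of these sites were both on chromosome 8. At chr8:74134776-74135495 the fold enrichment was 21.7 in WT, with a knockout peak of 26.4. At chr8:111981302-111981690 it was 20.9 in WT, with a knockout peak of 9.85, and this was the only one of the 5 without an H3K4me3 or an H3K27ac peak in knockout. All 5 overlapped WT H3K27ac, and none overlapped H3K4me1 or FLAG-BACH1. Fold enrichments of separate lists are not on one scale, so these pairs show where peaks were called and not a change in binding. By their names the replicate 2 NANOG lists may lack a blacklist filter that other lists had. The part of such a filter in these high values was not tested.

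The promoter-like sites sat in the interior of broad H3K4me3 peaks. They fell in 3050 of the 18779 WT H3K4me3 peaks, of which 2813 held 1 site, 219 held 2, and 18 held 3 or more. Of the 3307 sites 3261 (98.6%) lay wholly inside the H3K4me3 peak, and with each H3K4me3 peak divided into 3 equal parts the summits of 1845 (55.8%) lay in the middle one, where 48.8% of the shared peaks had theirs. The median distance of the summit was 425 bp from the centre of the H3K4me3 peak and 1039 bp from its nearer edge, against 535 and 1052 bp for the shared peaks. With the H3K4me3 peak divided into 10 equal parts in genome order, the share of the sites' summits was 1.16% in part 1, 18.4% in part 6 and 1.37% in part 10.

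**Figure D2:**
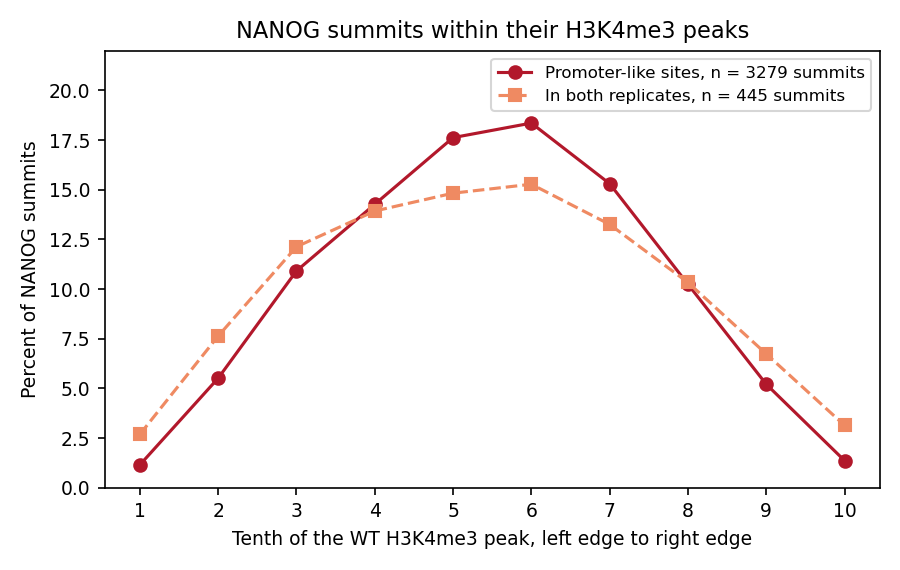
Share of NANOG summits (vertical axis, percent) in each of 10 equal parts of the WT H3K4me3 peak that holds them, in genome order (horizontal axis), for 3279 promoter-like sites with the summit inside and 445 peaks that both replicates listed. Both profiles are highest in part 6, at 18.4% for the promoter-like sites and 15.3% for the shared peaks.

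The H3K4me3 peaks that held a promoter-like site were wide and high in their list. Their median width was 3008 bp, against 2354 bp for the 15729 WT H3K4me3 peaks without one, and their median −log10 p was 54.9, against 25.8. A wider peak offers more room for an overlap, and the part of width in these shares was not tested. When all WT H3K4me3 peaks were ordered by −log10 p and cut into 10 groups of equal size, the share with a promoter-like site was 7.72% in the weakest group, 12.4% in group 5 and 35.3% in the strongest. The 418 H3K4me3 peaks that held a peak of both replicates were wider still, with a median of 3320 bp, so the width was not particular to those with a site. Their median −log10 p was 29.8, near the 29.6 of all.

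Nearly all promoter-like sites carried H3K27ac in WT. A WT H3K27ac peak overlapped 2947 of them (89.1%, exact binomial 95% interval 88.0 to 90.2%), against 57.2% of all WT replicate 2 peaks, 76.9% of the shared peaks at H3K4me3 and 40.6% of the 5237 replicate-2-only peaks outside H3K4me3. The 1036 peaks outside H3K4me3 that both replicates listed form the remaining class, and 30.4% of them overlapped WT H3K27ac. The summit itself lay in H3K27ac for 2858 sites (86.4%), against 72.7% of the shared peaks. H3K4me3 regions at large also had this mark often. Of the H3K4me3 peaks, 94.5% of those with a site and 75.4% of those without one overlapped WT H3K27ac, against 78.5% of all. Among the 418 that held a peak of both replicates the share was 91.4%, close to that of those with a site. Intervals here cover counting error only, and neighbouring peaks are not independent of each other.

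The 360 promoter-like sites without WT H3K27ac (10.9%) stood in weaker H3K4me3 peaks. Those H3K4me3 peaks had a median −log10 p of 23.7, against 60.9 for the sites with H3K27ac. The sites themselves were also narrower, with a median of 231.5 bp against 284 bp, while their median fold enrichments of 5.52 and 5.44 were close.

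H3K4me1, the enhancer mark, was present at a minority of the promoter-like sites. A WT H3K4me1 peak overlapped 833 of them (25.2%, interval 23.7 to 26.7%), against 25.9% of all replicate 2 peaks, so the share was near the background. It was 45.5% among the shared peaks at H3K4me3 and 15.0% among the replicate-2-only peaks outside H3K4me3. The commonest WT combination was H3K27ac without H3K4me1, at 2252 sites (68.1%). Both marks were found at 695 sites (21.0%), and neither at 222 (6.71%). Taken over the whole H3K4me3 peak in place of the NANOG peak, H3K4me1 was overlapped by 70.6% of those with a site and 55.8% of those without, against 58.2% of all, so the mark was often present in the same H3K4me3 peak without reaching the NANOG site.

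**Figure D3:**
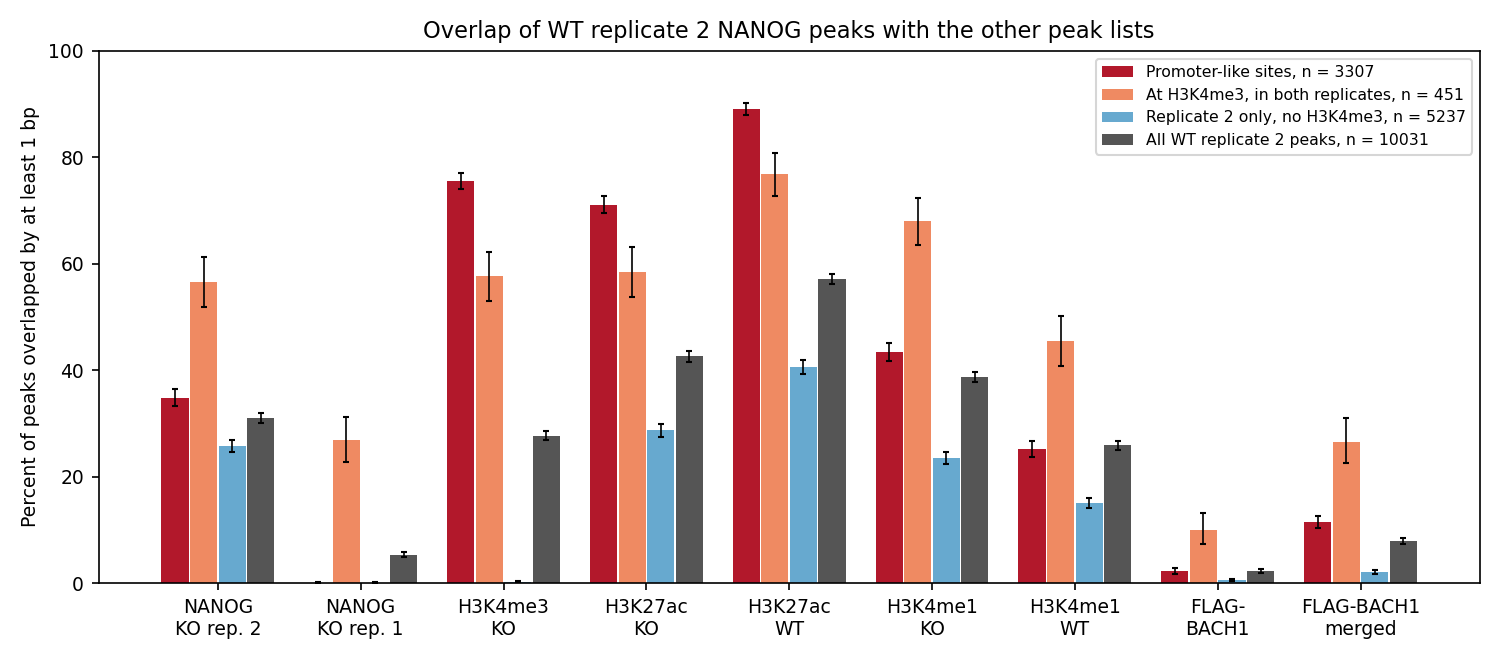
Share of NANOG peaks overlapped by at least 1 bp (vertical axis, percent, bars with exact binomial 95% intervals) for each of 9 other peak lists (horizontal axis), in 4 sets of WT replicate 2 peaks: the promoter-like sites, the peaks at H3K4me3 that both replicates listed, the replicate-2-only peaks outside H3K4me3 and all peaks. Of the sets drawn, the promoter-like sites had the highest H3K27ac and H3K4me3 shares, and the peaks of both replicates at H3K4me3 the highest NANOG, H3K4me1 and FLAG-BACH1 shares; the 1036 peaks of both replicates outside H3K4me3 are not drawn and had 74.5% for WT H3K4me1 and 39.6% for knockout replicate 1 NANOG.

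FLAG-BACH1 was found at few promoter-like sites. The 2134 FLAG-BACH1 peaks overlapped 76 of them (2.30%, interval 1.81 to 2.87%), against 2.28% of all WT replicate 2 peaks, so the share was at the background. It was 9.98% among the shared peaks at H3K4me3 and 0.554% among the replicate-2-only peaks outside H3K4me3. A merged FLAG-BACH1 list of 9321 regions, for which the sources used here do not say what was merged, overlapped 380 sites (11.5%), against 7.97% of all replicate 2 peaks, 26.6% of the shared peaks and 2.10% of the replicate-2-only peaks outside H3K4me3. Of the H3K4me3 peaks, FLAG-BACH1 overlapped 3.67% of those with a site and 2.78% of those without, against 2.93% of all, and the merged list overlapped 20.3% and 12.003% in the same order, against 13.3% of all.

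The 3 most enriched promoter-like sites with FLAG-BACH1 were at chr1:33964706-33964958, with a fold enrichment of 9.59, at chr11:77707362-77707705, with 8.996, and at chr7:80763375-80763738, with 8.70. The FLAG-BACH1 peaks there had −log10 p values of 25.7, 5.01 and 7.89 in that order. All 3 overlapped WT H3K27ac and had NANOG replicate 2, H3K4me3 and H3K27ac peaks in knockout. FLAG-BACH1 was found at 0 of the 38 sites with a fold enrichment of 10 or more, a number too small to set against the 2.30% of all sites.

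At the sites with FLAG-BACH1, knockout NANOG and H3K27ac were listed a little more often than at the sites without it, and knockout H3K4me3 less often. A knockout replicate 2 NANOG peak was present at 39.5% of the 76 sites with FLAG-BACH1 and 34.7% of the 3231 without. Knockout H3K4me3 was present at 65.8% of those with FLAG-BACH1 and 75.8% of those without, and knockout H3K27ac at 80.3% and 70.9% in the same order. Median NANOG fold enrichments in WT were 5.41 with FLAG-BACH1 and 5.44 without. The sites with FLAG-BACH1 lay in weaker WT H3K4me3 peaks, with a median −log10 p of 45.9 against 56.2. By the merged FLAG-BACH1 list knockout H3K4me3 hardly differed, at 76.1% of the 380 sites with a region and 75.5% of the 2927 without. Knockout replicate 2 NANOG was at 40.3% and 34.1% in the same order, and knockout H3K27ac at 75.3% and 70.6%. These differences were not tested, since each readout here rests on 1 list.

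Most promoter-like sites, like most WT replicate 2 peaks, had no NANOG peak in knockout replicate 2, and all but 1 had none in knockout replicate 1. A knockout replicate 2 NANOG peak overlapped 1152 sites (34.8%, interval 33.2 to 36.5%), against 31.0% of all WT replicate 2 peaks, 56.5% of the shared peaks at H3K4me3 and 25.8% of the replicate-2-only peaks outside H3K4me3. Another 364 sites had a knockout replicate 2 peak within 500 bp but no overlap, which brought the number within 500 bp to 1516 (45.8%). Knockout replicate 1, a list of 2071 peaks, overlapped 1 site (0.0302%), against 5.32% of all WT replicate 2 peaks. The other class without WT replicate 1 peaks, the replicate-2-only peaks outside H3K4me3, had 0.0382%, and the classes with them had 26.8% at H3K4me3 and 39.6% outside it, so the low share goes with the rule that left out WT replicate 1 peaks and nothing is read from it. That site, which is singled out because it was the only one, was chr10:66465415-66465739, with a fold enrichment of 8.997 in WT, and it overlapped the knockout replicate 1 peak by 34 bp. Of the H3K4me3 peaks, knockout replicate 1 NANOG overlapped 1.70% of those with a site and 1.41% of those without, against 1.45% of all, and knockout replicate 2 NANOG 53.0% and 30.9%, against 34.5% of all.

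The NANOG lists divided by replicate number more than by genotype in how much H3K4me3 they held. WT H3K4me3 peaks overlapped 13.7% of the knockout replicate 1 peaks and 16.7% of the WT replicate 1 peaks. In replicate 2 the shares were 38.1% in knockout and 37.5% in WT. What set replicate 2 apart from replicate 1 (the experiment, the sequencing, the peak calling or a filter of the list) cannot be told apart with 1 list each.

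The knockout peaks at the promoter-like sites were stronger than the usual knockout replicate 2 peak. The 1150 knockout replicate 2 peaks that overlapped a site had a median width of 348.5 bp and a median fold enrichment of 5.67. The 6477 at WT H3K4me3 that overlapped no site had 288 bp and 4.95, and all 20025 had 263 bp and 4.95. A wider peak offers more room for an overlap, and knockout peaks at the other classes of WT replicate 2 peaks were not set beside these. A knockout peak was most frequent at the most enriched sites. In 4 groups of equal size by WT fold enrichment, low to high, a knockout replicate 2 peak was present at 34.1, 34.0, 31.1 and 40.1% of the sites, and it was present at 32 of the 38 sites (84.2%) with a fold enrichment of 10 or more. Width ran in the same direction, since the sites with a knockout peak had a median width of 310.5 bp and those without 263 bp. Median WT fold enrichment did not differ, at 5.44 with a knockout peak and 5.44 without. Knockout peaks at other WT replicate 2 peaks with a fold enrichment of 10 or more were not counted, so the 84.2% has no share beside it.

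The most enriched promoter-like sites with no knockout NANOG peak in either replicate were among the 38 with a fold enrichment of 10 or more. They were chr2:119567286-119567639 with a fold enrichment of 11.8 in WT, chr9:21420851-21421139 with 11.1, and chr11:100251195-100251487 with 10.9. All 3 had H3K4me3 and H3K27ac peaks in knockout and lay in H3K4me3 peaks with −log10 p values between 49.5 and 136.

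Most promoter-like sites had H3K4me3 in knockout as well. A knockout H3K4me3 peak overlapped 2500 of them (75.6%, interval 74.1 to 77.1%), against 27.7% of all WT replicate 2 peaks, and the rule fixes much of that difference because it asks for WT H3K4me3. The comparison that the rule leaves free is among H3K4me3 peaks, where 76.8% of those with a site and 56.1% of those without one overlapped a knockout H3K4me3 peak, against 59.5% of all. The knockout list was shorter, 11157 peaks against 18779 in WT.

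Whether knockout H3K4me3 was listed followed the strength of the WT peak. Over all WT H3K4me3 peaks the share with a knockout peak was 1.92% in the weakest of the 10 groups, 65.1% in group 5 and 99.9% in the strongest. Within 4 groups of equal size by WT −log10 p, the H3K4me3 peaks with and without a promoter-like site were close. In the weakest of the 4 the share was 4.11% with a site and 3.37% without, in the next 44.7% and 40.6%, in the next 91.4% and 94.1%, and in the strongest 100% and 99.7%. The gap of the pooled shares was thus not seen within the 4 groups, over which the sites were unevenly spread.

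Knockout H3K27ac and replicate 2 NANOG behaved otherwise, with a gap between H3K4me3 peaks with and without a site inside each of the 4 groups. Knockout H3K27ac overlapped 52.9% of those with a site and 23.6% of those without in the weakest group, 65.5% and 45.4% in the next, 82.4% and 71.5% in the next, and 95.0% and 89.5% in the strongest. For H3K27ac the gap was present in WT as well, at 79.7% with a site and 46.7% without in the weakest group. In the strongest group these WT shares were 99.8% and 98.2%. Knockout replicate 2 NANOG overlapped 36.4% with a site and 15.0% without in the weakest group, and 62.0% and 48.4% in the strongest. Widths of the H3K4me3 peaks were not held equal within the groups, and their part in these gaps was not tested. The weakest group held 365 H3K4me3 peaks with a site and 4330 without, and the strongest 1349 and 3346.

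**Figure D4:**
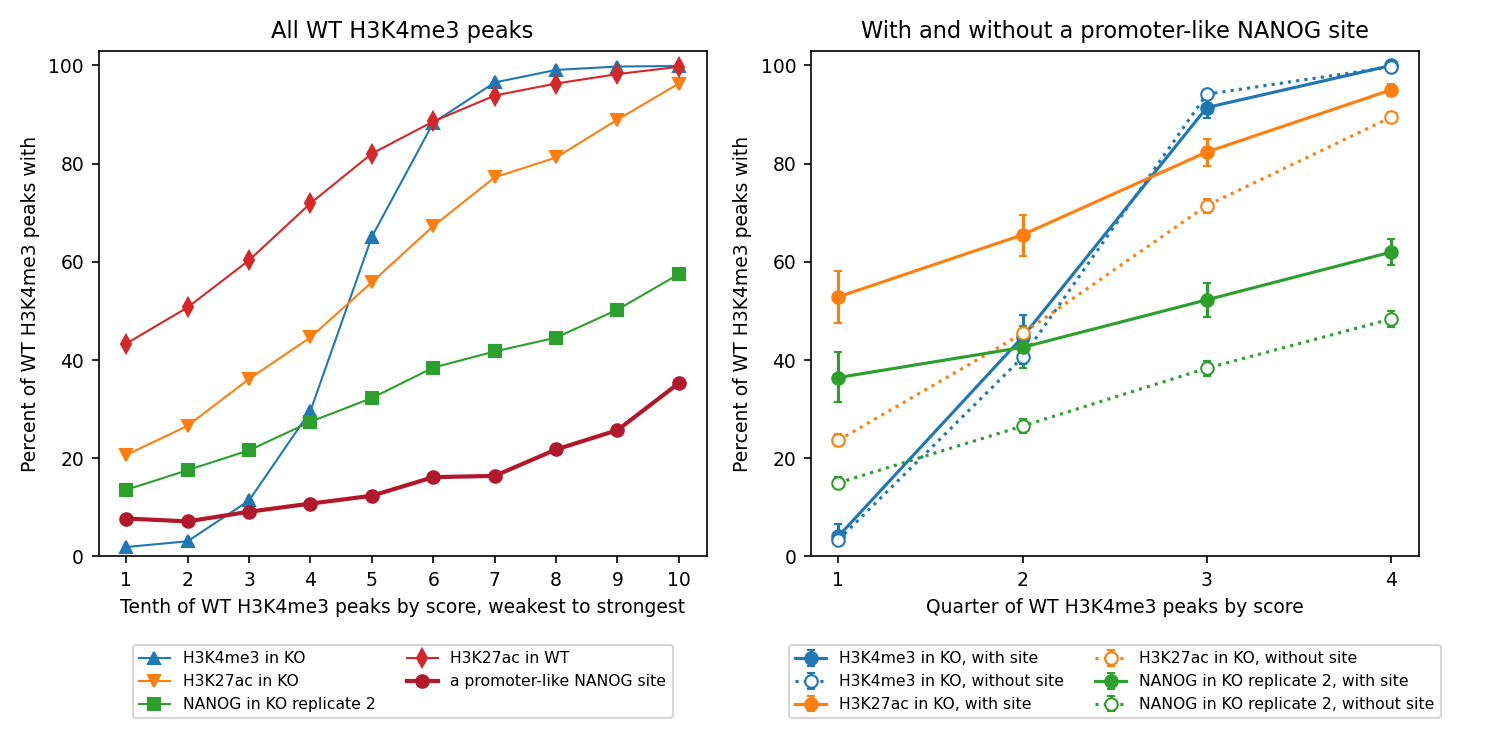
Share of WT H3K4me3 peaks (vertical axes, percent) that hold a promoter-like site or overlap another list, by 10 groups of −log10 p (left) and, with exact binomial 95% intervals, by 4 such groups for peaks with a site (filled, solid) and without (open, dotted; right). The share with a site is 7.14% at its lowest, in the next to weakest group, and 35.3% in the strongest, and in the right panel the H3K4me3 lines of both kinds of peak lie close together while those of H3K27ac and NANOG are apart, most in the weakest group.

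The 807 promoter-like sites without knockout H3K4me3 (24.4%) were at the weak end of the WT list. Their H3K4me3 peaks had a median −log10 p of 12.2 and a median width of 2301 bp, against 73.4 and 3289 bp for the 2500 with it. WT H3K4me1 was more frequent at the sites without knockout H3K4me3 (49.2% against 17.4%), and WT H3K27ac less so (76.0% against 93.4%). NANOG fold enrichment hardly differed, with medians of 5.37 and 5.44.

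Among these sites the 3 most enriched were chr8:111981302-111981690, described above, chr19:10379198-10379660 and chr7:16705208-16705688. The site on chromosome 19 had a fold enrichment of 18.3 in WT, a knockout replicate 2 peak of 120, and a knockout H3K27ac peak. The site on chromosome 7 had 14.1 in WT, a knockout peak of 19.3, a knockout H3K27ac peak, and WT H3K4me1. Their WT H3K4me3 peaks were weak, with −log10 p values of 11.1 and 9.96. NANOG and H3K27ac peaks were thus listed in knockout at both regions where the H3K4me3 list had none.

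H3K27ac was listed in both genotypes at most promoter-like sites. A knockout H3K27ac peak overlapped 2351 sites (71.1%, interval 69.5 to 72.6%), against 42.6% of all WT replicate 2 peaks, and the WT share was 89.1%. Of the H3K4me3 peaks, knockout H3K27ac overlapped 81.6% of those with a site and 55.2% of those without, against 59.5% of all. Among the 418 that held a peak of both replicates the share was 78.0%. Of the sites, 2295 (69.4%) had H3K27ac in knockout and in WT, 56 (1.69%) in knockout only, and 652 (19.7%) in WT only. These joint shares were not counted over other peaks, where the knockout share was also the lower one. Over all WT replicate 2 peaks H3K27ac was at 57.2% in WT and 42.6% in knockout. Over all WT H3K4me3 peaks it was at 78.5% in WT and 59.5% in knockout. The 652 with WT H3K27ac alone lay in H3K4me3 peaks with a median −log10 p of 33.8, against 68.5 for those with both. The knockout H3K27ac list was also the shorter one, with 25755 peaks against 44579 in WT, and without depths a lost mark and a less sensitive list cannot be told apart.

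H3K4me1 went the other way. A knockout H3K4me1 peak overlapped 1433 sites (43.3%), against 38.7% of all WT replicate 2 peaks, while WT H3K4me1 overlapped 25.2% of the sites. Of the H3K4me3 peaks it overlapped 90.2% of those with a site and 80.1% of those without, against 81.8% of all. The knockout list was the longer one of the pair for this mark, with 54227 peaks against 36001 in WT.

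Taken over the 3 knockout readouts, H3K4me3, H3K27ac and replicate 2 NANOG, the largest class of promoter-like sites had both histone marks without NANOG. It held 1156 sites (35.0%), and 818 (24.7%) had all 3. None of the 3 was listed at 355 sites (10.7%), and 418 (12.6%) had H3K4me3 alone. NANOG without either mark was found at 75 sites (2.27%). The strength of the WT H3K4me3 peak ordered the ends of this scale, with a median −log10 p of 82.2 for the sites with all 3 and 11.2 for those with none, while NANOG fold enrichment in WT had medians of 5.44 and 5.37. Shares of these joint classes over all WT replicate 2 peaks or all H3K4me3 peaks were not counted. The counts therefore describe the sites and show nothing particular to them.

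The promoter-like sites were unevenly spread over the chromosomes. A site was found in 21.7% of the WT H3K4me3 peaks on chromosome 6 (interval 18.8 to 24.9%), 26.4% on chromosome 8 (23.8 to 29.1%) and 23.8% on chromosome 11 (21.8 to 25.9%). On the other 16 autosomes the share ran from 10.5 to 16.8% with a median of 14.7%, and on chromosome X it was 5.03%. Chromosomes 6, 8 and 11 together held 965 sites (29.2%) and 19.04% of the WT H3K4me3 peaks. These chromosomes were singled out after the values were seen.

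The excess was present at weak and at strong H3K4me3 peaks. In the weakest of the 4 groups of H3K4me3 peaks 8.67, 13.2 and 13.4% held a site on chromosomes 6, 8 and 11, against 6.83% on the other autosomes. In the strongest group the shares were 41.9, 42.0 and 36.0%, against 26.2%. Knockout replicate 2 NANOG showed the same chromosomes, overlapping 43.7, 44.2 and 43.5% of their WT H3K4me3 peaks, against 29.3 to 36.0% on the other autosomes.

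Other lists shared the pattern only in part. WT replicate 1 NANOG overlapped 16.7% of the H3K4me3 peaks on chromosome 6, and its 7.95 and 8.72% on chromosomes 8 and 11 lay within the 5.45 to 8.82% of the other autosomes. The merged FLAG-BACH1 list overlapped 24.0 and 32.2% on chromosomes 8 and 11 but 6.24% on chromosome 6, against 7.54 to 13.5%. Knockout H3K4me3 overlapped 54.4, 57.8 and 55.4%, against 56.6 to 64.3%. The cause of the unevenness was not tested.

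**Figure D5:**
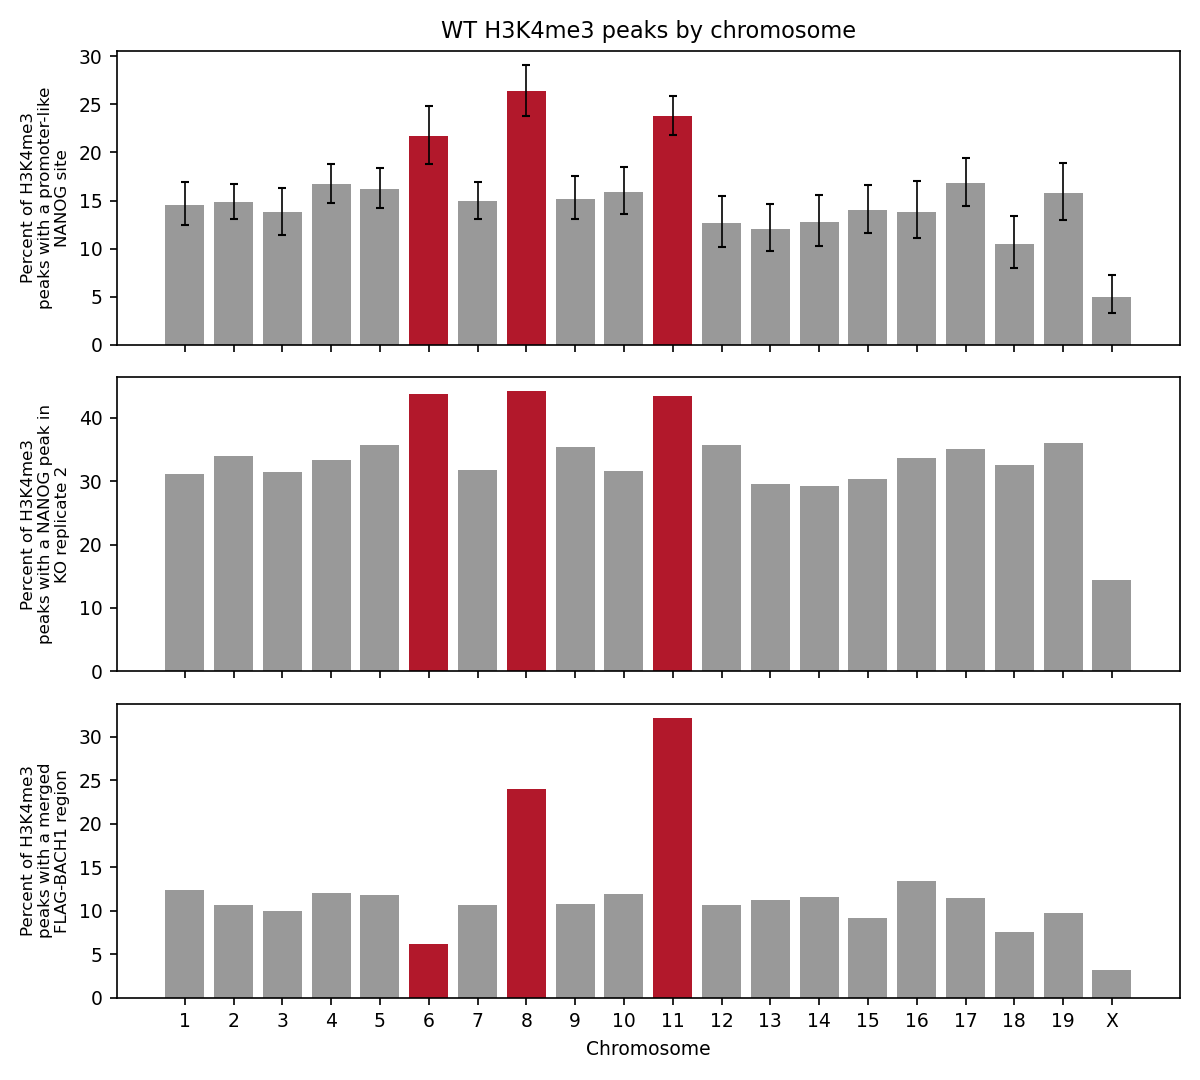
Share of WT H3K4me3 peaks (vertical axes, percent) on each chromosome (horizontal axis) that hold a promoter-like site (top, with exact binomial 95% intervals), a knockout replicate 2 NANOG peak (middle) or a merged FLAG-BACH1 region (bottom). Chromosomes 6, 8 and 11, in red, lead the upper and middle panels, at 21.7, 26.4 and 23.8% in the upper one, while chromosome 6 is low in the bottom panel.

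On chromosome 11 the excess was greatest along the first 60 Mb. There 158 of 404 WT H3K4me3 peaks held a promoter-like site (39.1%, interval 34.3 to 44.1%), against 257 of 1340 (19.2%, interval 17.1 to 21.4%) beyond 60 Mb, a boundary that was chosen after the values were seen. WT replicate 1 NANOG ran in the same direction, at 20.0% in the first 60 Mb and 5.30% beyond it, as did knockout replicate 2 NANOG at 56.2 and 39.7%. Merged FLAG-BACH1 ran the opposite way, at 18.1% in the first 60 Mb and 36.5% beyond. The unmerged FLAG-BACH1 list differed little, at 4.70 and 5.52% in the same order. Of 77 bins of 30 Mb on the other 16 autosomes, each with at least 20 H3K4me3 peaks, the share with a site ran from 3.77 to 22.01%. The part of chromosome 11 beyond 60 Mb was mixed, with 16.7, 20.0 and 31.6% by such bins in genome order. The last of these bins held 57 H3K4me3 peaks, 18 of them with a site.

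The promoter-like sites on chromosomes 6, 8 and 11 were otherwise like the rest in NANOG enrichment, with a median of 5.34 against 5.44 on the other chromosomes, and their median width was 288 bp against 272 bp. They had a knockout replicate 2 NANOG peak more often (43.4% against 31.3%), WT H3K4me1 more often (34.0% against 21.6%) and FLAG-BACH1 more often (3.63% against 1.75%). Knockout H3K4me3 was less frequent at them (70.7% against 77.6%). Pooled, all WT H3K4me3 peaks of these 3 chromosomes differed in the same directions from those of the other autosomes. Knockout replicate 2 NANOG was at 43.8% against 33.0% and WT H3K4me1 at 65.7% against 57.9%. FLAG-BACH1 was at 4.39% against 2.61% and knockout H3K4me3 at 55.9% against 60.2%. Singly, chromosome 11 had 54.9% for WT H3K4me1 and chromosome 6 had 2.31% for FLAG-BACH1, both below the pooled other autosomes.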

How the data were processed

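Peaks came from 12 deposited lists and RNA levels from 1 table. Per the submitters' processing notes, build mm9, Trim Galore, Bowtie2, MACS2, STAR, StringTie 1.3.4d and limma were named for ChIP samples, and Trim Galore, HISAT2, HOMER and limma for RNA, with no step, threshold or read depth given. The names of the replicate 2 NANOG lists lack the word black that the other lists with scores carry, which may mean a blacklist filter. The deposited NANOG and H3K4me1 lists give a fold enrichment ratio per peak and −log10 p and q values. The authors' H3K4me3, H3K27ac and FLAG-BACH1 lists give a score with no stated meaning. From its older MACS layout it was read as 10 times −log10 p and divided by 10, so every −log10 p given for these lists rests on that reading, and values at 310 look like a ceiling. The deposited RNA values are TPM by the authors, which keep no depth (listed sums 604964 to 606200).

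Overlaps of at least 1 bp were counted with Python 3.11.15, numpy 2.4.6 and pandas 2.3.3, and shares have exact Clopper-Pearson 95% intervals (scipy 1.17.1). NANOG had 2 lists per genotype, of which replicate 1 pools sequencing runs, and each other mark had 1 list per genotype. The members are defined by a difference between replicates, so no peak comparison was tested. Genes reaching 1 TPM in 3 or more libraries were tested on log2(TPM + 1) by limma 3.58.1 under R 4.3.3, with moderated variances following a mean trend, Benjamini-Hochberg adjustment and calls at 0.05. RNA libraries are biological triplicates per the labels. Same-numbered knockout and WT libraries did not deviate together (correlations −0.0030, 0.070 and −0.00079), so the numbers pair nothing. The code was tested on simulated data.

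The members and lists were chosen with earlier results of these data known. Named regions were the 5 most enriched members and the 3 most enriched with FLAG-BACH1, without knockout H3K4me3 and without knockout NANOG, outside chromosomes 18 and Y. Alternatives to the overlap rule, thresholds, replicates and RNA scaling were tried. A pseudocount of 1 understates changes of low genes. The authors' lists of changed transcripts, the 4 input samples and gene and sequence tables of build GRCm38 were not used here.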

Additional observations from a re-analysis of the deposited data

How the results depend on the processing

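Of the alternative values, 95 kept their call, stayed within the error or, for counts, within 1.5 times, while 43 moved, 1 lost its call and none reversed. The 95 include a count of 2342 sites without chromosomes 6, 8 and 11 and Bach1 log2 fold changes between −0.44 and −0.14. Without WT replicate 1 in the rule, median fold enrichment was 5.52, WT H3K27ac 87.7%, WT H3K4me1 27.6%, FLAG-BACH1 3.22%, knockout replicate 2 NANOG 37.4%, knockout replicate 1 NANOG 3.25% and knockout H3K4me3 73.4%. With NANOG peaks of −log10 q of at least 5 there were 1026 sites, with a median width of 296 bp, median enrichment of 6.64, WT H3K27ac 90.5%, WT H3K4me1 23.4%, knockout replicate 2 NANOG 41.5%, knockout H3K4me3 77.6% and knockout H3K27ac 73.2%. With WT H3K4me3 peaks of −log10 p of at least 10, WT H3K27ac was 91.1%, WT H3K4me1 22.4%, knockout H3K4me3 83.4% and knockout H3K27ac 74.3%. With the summit inside the other peak, WT H3K27ac was 86.4%, WT H3K4me1 22.5%, knockout replicate 2 NANOG 25.8% and knockout H3K27ac 65.9%. With at least 50% of the NANOG peak covered these were 86.5, 22.6, 24.8 and 66.3% in the same order. Knockout replicate 1 NANOG was 0.0% under both and with no replicate 1 peak within 500 bp. With only the stronger part of each other list above its median, WT H3K27ac was 79.4%, WT H3K4me1 13.5%, FLAG-BACH1 1.24%, knockout replicate 2 NANOG 25.6%, knockout H3K4me3 48.1% and knockout H3K27ac 51.7%. The merged list gave 11.5% for FLAG-BACH1, and a peak in either knockout replicate gave 34.8% for NANOG. Without chromosomes 6, 8 and 11, an alternative chosen after seeing the data, median width was 272 bp, WT H3K4me1 21.6%, FLAG-BACH1 1.75%, knockout replicate 2 NANOG 31.3% and knockout H3K4me3 77.6%. Stricter lists hold fewer peaks by construction, and the cause of the other shifts was not tested.

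The count of called RNA genes ran from 9699 to 12717 over all alternatives and was 10149 with the replicate block. Bach1 RNA lost its call under median-of-ratios scaling (log2 fold change −0.16, adjusted p = 0.0730), and its adjusted p ran from 0.00201 to 0.0460 over the other alternatives. With the replicate block, the calls of Bach1 and Nanog were as reported. Read depth was not given for any list, so absent peaks may be peaks below detection, and most marks have 1 list per genotype.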

Other observations

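At 151 promoter-like sites (4.57%) knockout replicate 2 NANOG and H3K27ac peaks were listed but no knockout H3K4me3 peak. This class did not ask for H3K27ac in WT, and its share over all WT replicate 2 peaks was not counted. The median NANOG fold enrichment of these sites in WT was 5.32. Their WT H3K4me3 peaks had a median −log10 p of 14.0. All classes without knockout H3K4me3 had such weak WT peaks, with medians of 11.2 to 14.0. A further 226 sites (6.83%) had knockout H3K27ac alone, at a median WT H3K4me3 −log10 p of 12.8.

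The 56 sites with H3K27ac in knockout only had a median width of 236.5 bp and a median WT fold enrichment of 5.16. Knockout H3K4me3 overlapped 31 of them (55.4%) and knockout replicate 2 NANOG 10 (17.9%).

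RNA of genes by chromosome was set beside the uneven spread of the sites. Relative to the median of all tested genes, which was −0.20 on the log2(TPM + 1) scale and −0.03 after quantile normalization, the median knockout-over-WT log2 fold change was −0.13 on chromosome 6, 0.06 on chromosome 8 and 0.00 on chromosome 11, while the other autosomes ran from −0.12 on chromosome 18 to 0.10 on chromosome 15.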
